A study of Rattus norvegicus with 20 samples.

Results

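The question was whether the lung transcriptome differed between stimulated and unstimulated rats by another amount after caecal ligation and puncture than after sham surgery. Lung RNA had been sequenced from rats in 4 groups of 5. Sham rats had the abdomen opened at the midline and the caecum handled, with no ligature and no puncture. CLP rats had the caecum tied off and punctured (caecal ligation and puncture), which lets gut bacteria leak into the abdominal cavity and was used to bring on acute respiratory distress syndrome. Sham+VNS and CLP+VNS rats had the same operations together with electrical pulses to the right cervical vagus nerve (vagus nerve stimulation, VNS). All 20 of the 20 libraries of the series enter the comparison, which is (CLP+VNS minus CLP) minus (Sham+VNS minus Sham) on the log2 scale and is called the interaction below. A value above 0 means that the stimulated minus unstimulated difference was higher after CLP than after sham surgery. A value below 0 means the reverse. The same number is the effect of CLP with stimulation minus the effect of CLP without it. Not given in the sources used here are the strain, sex or age of single animals, the time from operation to tissue collection, the current used and a sequencing batch, and nothing in them says that equal replicate numbers pair animals.

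The vagus nerve carries sensory fibres from the lung and gut to the brainstem and motor fibres back to the viscera. In the inflammatory reflex, vagal output acts through the splenic nerve, noradrenaline and acetylcholine on macrophages and lowers their release of cytokines such as tumour necrosis factor. In the airway, vagal motor fibres release acetylcholine onto muscarinic receptors of smooth muscle and glands, and sensory fibres release neuropeptides.

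Total counts per library ran from 13729654 to 14453188. The lung marker Sftpc, surfactant protein C of alveolar type 2 cells, was measured at 9544 to 15846 CPM over the 20 libraries, where CPM are counts brought to a common library size with TMM factors. In a principal component analysis of the 1000 genes of highest variance, component 1 (46.8% of variance) parted all CLP-operated from all sham-operated animals. Sham replicate 1 was the extreme library on component 2 (8.69%), and it had the highest Adipoq, the fat cell hormone adiponectin, at 285 CPM, and the highest Myh6, a heart muscle myosin, at 51.7 CPM.

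No gene passed the test of the interaction. Of the 14794 genes tested with edgeR's quasi-likelihood test and Benjamini-Hochberg adjustment, 0 were called at an adjusted p below 0.05 (0%), and the lowest adjusted p was 0.501. At an unadjusted p below 0.05 there were 1217 genes (8.23%), 613 of them above 0 (4.14%) and 604 below 0 (4.08%). Limma-voom also called 0 genes, while DESeq2 called 6, of which 2 were above 0 and 4 below 0. The median interaction of all tested genes was 0.01, and 7726 genes were above 0 and 7068 below. Leaving out CLP+VNS replicate 1 gave 3 calls, and leaving out any other library gave 0. All interaction values that follow are therefore estimates that did not pass edgeR's test over all genes, each given with its SE on the log2 scale and, where printed, its adjusted p from edgeR, and 4 groups of 5 libraries stand behind each.

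Many genes passed the test of the operation in both arms. CLP differed from Sham in 5955 genes (40.3%), 2926 higher and 3029 lower. CLP+VNS differed from Sham+VNS in 4044 genes (27.3%), 2060 higher and 1984 lower. These counts differ, but a difference in counts of called genes is no test of an interaction. Over the 10378 genes averaging 10 CPM or more, the effect of the operation without stimulation and the effect with it, which share no library, had a Pearson correlation of 0.892 and a Spearman correlation of 0.833 across genes, a description over genes that are not independent. The stimulated minus unstimulated differences after CLP and after sham surgery had a Pearson correlation of 0.153 and a Spearman correlation of 0.167 over those genes. Stimulation alone gave few calls: 4 genes fell after CLP (0.027%) and 0 passed after sham surgery (0%), where 1185 genes had an unadjusted p below 0.05 (8.01%) and DESeq2 called 6. After CLP DESeq2 called 144, while edgeR with total counts alone called 0 and limma on log2(TPM + 1) and on log2(TPM + 0.1) called 0. The count of 4 after CLP also depended on single libraries. It was 277 without CLP+VNS replicate 1, 2 without Sham replicate 4, and 0 or 1 without any 1 of Sham replicates 1 and 5, Sham+VNS replicates 1 and 3, CLP replicates 3, 4, 5 and 6, and the other 4 CLP+VNS libraries. After sham surgery it was 2 without Sham replicate 3 and 1 without CLP replicate 5.

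The design limited what size of interaction could be seen. The median SE of the interaction was 0.144, against 0.102 for each stimulation difference alone. For 11965 genes (80.9% of those tested) the 95% interval of the interaction lay within 2-fold either way. Of the 10378 genes averaging 10 CPM or more, 94.5% had an interval within 2-fold and 81.2% within 1.5-fold. For the other genes an interaction above 2-fold lay inside the interval.

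**Figure D1:**
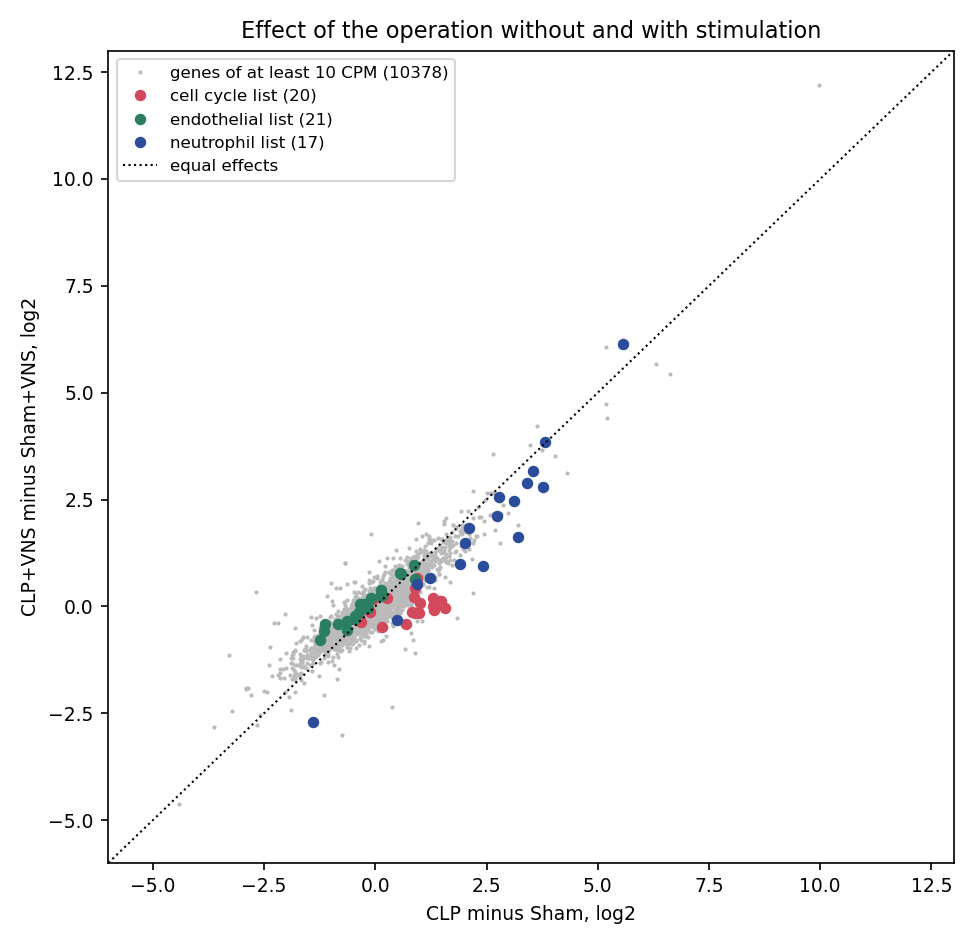
Effect of CLP without stimulation (x axis, CLP minus Sham, log2) against the effect of CLP with stimulation (y axis, CLP+VNS minus Sham+VNS, log2). Each grey point is 1 of 10378 genes averaging 10 CPM or more, coloured points are all tested members of the cell cycle (20), endothelial (21) and neutrophil (17) lists, and the dotted line marks equal effects. The interaction is the height above or below the dotted line: most cell cycle points lie to the right at a y value near 0.

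Genes of cell division had the lowest median of the 17 gene lists described here, which are part of 48 lists that were summarised. Among the lists not described, skeletal muscle had nearly the same median, -0.999, over 3 tested genes. Among the 10 genes below 0 with the lowest unadjusted p were 3 genes of the late cell cycle. Cep55 is a scaffold of the midbody that is needed for the last cut between daughter cells, Depdc1b is a DEP domain protein whose level rises in dividing cells, and Tacc3 binds and stabilises spindle microtubules.

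Cep55 (gene 294074) was measured at 1.34, 1.82, 1.74, 1.90 and 0.760 CPM in Sham, 1.90, 1.88, 5.28, 2.43 and 3.38 in Sham+VNS, 3.21, 3.60, 6.73, 6.59 and 7.13 in CLP and 2.68, 3.66, 1.95, 2.07 and 2.25 in CLP+VNS. CLP replicates 4, 5 and 6 were above every other library. CLP replicates 1 and 3 lay among the higher libraries of both stimulated groups, and Sham was lowest. Its interaction was -2.08 ± 0.45 (SE; 95% interval -3.03 to -1.14, adjusted p = 0.501 from edgeR), a gene that DESeq2 called (adjusted p = 0.0245). The CLP minus Sham difference of Cep55 was 1.85 (adjusted p = 1.64e-04), and the CLP+VNS minus Sham+VNS difference was -0.24 (adjusted p = 0.632).

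Tacc3 (gene 360962) separated the CLP group from all others. Its level was 18.8, 26.9, 26.8, 22.9 and 24.0 CPM in CLP and 15.2, 16.4, 11.7, 13.0 and 15.8 CPM in CLP+VNS. In Sham it was 12.7, 10.6, 15.2, 15.0 and 12.4 CPM, and in Sham+VNS it was 13.4, 13.3, 14.5, 10.4 and 14.9 CPM. The lowest CLP library was above the highest library of each other group. Tacc3 fell under stimulation after CLP (-0.72, adjusted p = 0.0421 from edgeR), and the difference after sham surgery was 0.01, which gave an interaction of -0.74 ± 0.18 (adjusted p = 0.501). Depdc1b was at 2.95 ± 0.820 CPM in CLP and 1.89 ± 0.395 CPM in CLP+VNS, against 1.33 ± 0.164 in Sham and 2.25 ± 0.718 in Sham+VNS (mean ± SD, n = 5), an interaction of -1.40 ± 0.34 with adjusted p = 0.502 from edgeR's fit across all genes.

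The cell cycle list, which does not hold Cep55, Depdc1b or Tacc3, had 20 tested members. Of these, 18 had an interaction below 0, and 13 were below 0 with an unadjusted p below 0.05, that is 65.0% of the list against 4.08% of all genes. Mcm2, a subunit of the replicative helicase, was the 1 member above 0 at that level, at 0.22 ± 0.10. The list's median interaction was -0.999, against 0.01 for all tested genes. Without stimulation 15 members rose after CLP and 1 fell, where 19.8% of all genes rose and 20.5% fell. With stimulation 2 rose and 1 fell, where 13.9% of all genes rose and 13.4% fell. The median effect of the operation over the list was 0.92 without stimulation and 0.00 with it, where it was -0.01 in each arm over all tested genes. The median stimulated minus unstimulated difference over the list was -0.70 after CLP and 0.29 after sham surgery, so both operations entered the interaction. Over all tested genes these medians were 0.00 and -0.01. In 16 of the 20 members the mean was highest in CLP (80.0%), against 27.4% of all tested genes.

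The members with the lowest p were the mitotic cyclins that activate Cdk1. Ccnb1 was at 2.40, 2.93, 3.56, 3.73 and 1.86 CPM in Sham, 3.51, 2.92, 6.65, 3.92 and 4.71 in Sham+VNS, 4.07, 6.64, 7.67, 9.89 and 8.96 in CLP and 3.50, 6.31, 3.60, 4.13 and 4.14 in CLP+VNS, an interaction of -1.36 ± 0.37 (adjusted p = 0.502 from edgeR). Ccnb2 was at 2.19, 2.24, 3.85, 3.66 and 1.17 CPM in Sham, 2.88, 3.20, 7.06, 3.85 and 4.71 in Sham+VNS, 4.07, 6.00, 11.6, 7.98 and 8.96 in CLP and 4.25, 4.87, 2.88, 4.49 and 4.70 in CLP+VNS, an interaction of -1.59 ± 0.44 (adjusted p = 0.502 from edgeR). In both genes CLP replicate 1 lay within the range of the CLP+VNS libraries, and the other 4 CLP libraries lay above that range.

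Other members of the list acting in mitosis and in DNA synthesis also had estimates below 0. Bub1b, a checkpoint kinase that holds anaphase until chromosomes are attached, had an interaction of -1.36 ± 0.49. Mki67, the coat protein of mitotic chromosomes used as a proliferation marker, had -1.13 ± 0.36, and Top2a, the topoisomerase that untangles replicated DNA, had -1.41 ± 0.51. Cdk1 itself had -1.29 ± 0.43, Cdc20, which switches on the anaphase-promoting complex, had -1.05 ± 0.37, and Rrm2, a subunit of ribonucleotide reductase, had -0.95 ± 0.33. Estimates nearer 0 were found for other members that act in DNA synthesis, named after their values were seen. Pcna, the sliding clamp, had -0.06 ± 0.06, Tyms, thymidylate synthase, had -0.05 ± 0.12, and Mcm3 had 0.01 ± 0.22.

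The libraries were uneven within groups. The summed level of the cell cycle list was 193, 229.9, 219, 232 and 192 CPM in Sham, 190.5, 199.6, 279, 227 and 257 in Sham+VNS, 247, 268, 336, 322 and 334 in CLP and 236, 267, 210.1, 222 and 227 in CLP+VNS. CLP replicates 4, 5 and 6 were higher than every other library, and CLP replicates 1 and 3 lay below Sham+VNS replicate 3, the highest of the stimulated libraries. In a whole-tissue sample fewer cells of a kind and less RNA per cell cannot be told apart, here or in any list below. Between 12 and 15 members stayed below 0 at an unadjusted p below 0.05 when any 1 library was left out. The list's median then ran from -1.13 to -0.73, the latter without Sham+VNS replicate 5. Fewer members stayed at that level when the replicate number was added to the fit as a block, as given at the end. The members vary together within libraries, so these counts are not over independent genes.

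**Figure D2:**
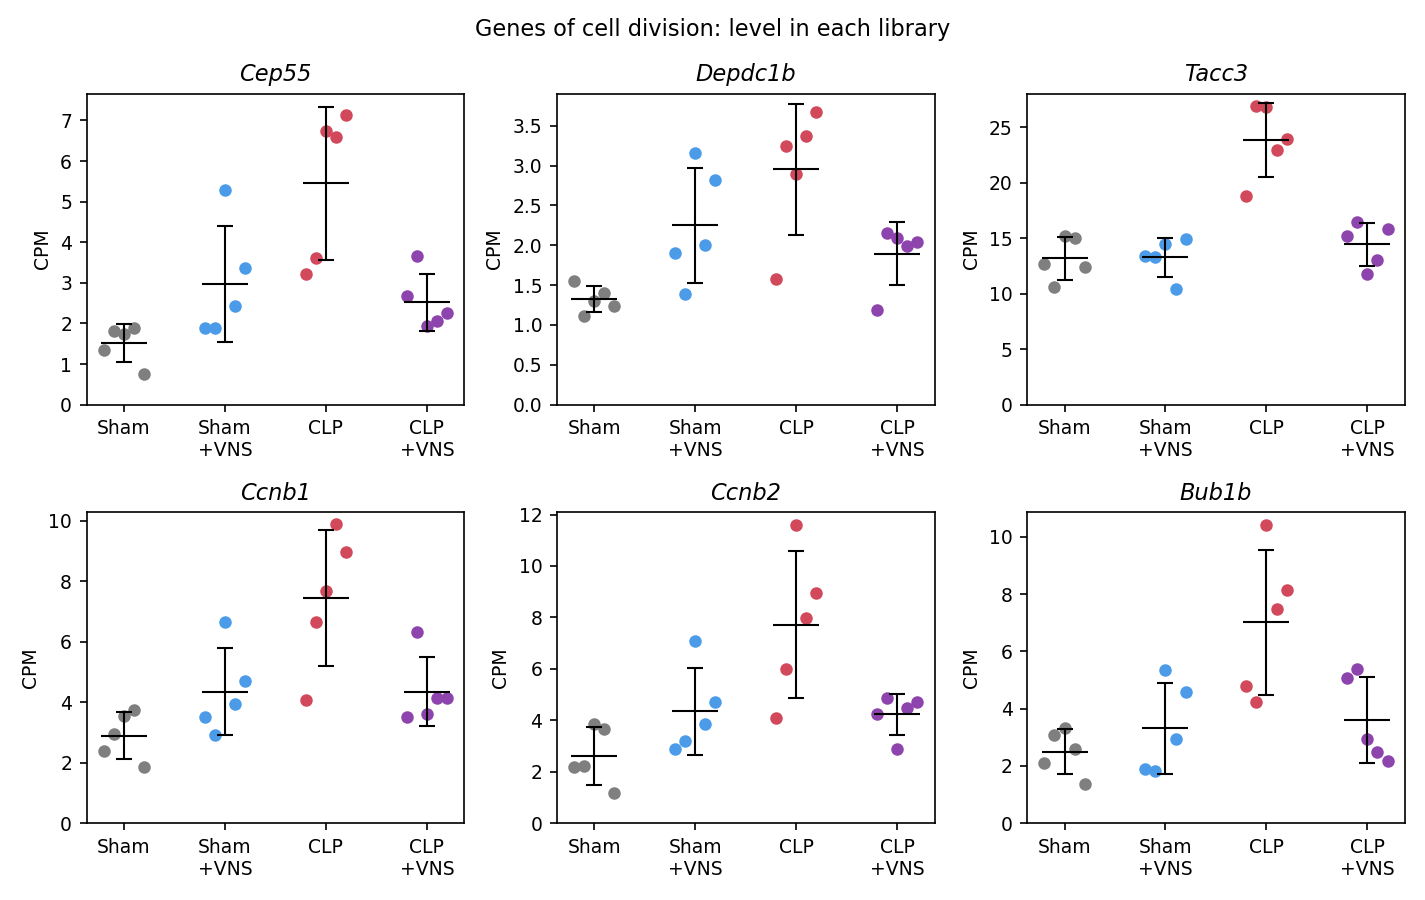
Level of 6 genes of cell division in each of the 20 libraries, in CPM on a linear axis that starts at 0. Points are libraries, the long bar is the group mean and the whiskers are 1 SD (n = 5). Tacc3 in CLP lies above all other groups, at 18.8 to 26.9 CPM, while the other 5 genes overlap between CLP and at least 1 stimulated group.

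Promoters of mitotic genes are known to carry a cell cycle genes homology region, a short element bound by the DREAM and MuvB complexes, often some bases downstream of CCAAT boxes bound by NF-Y. The 250 bases before the start of Cep55, Tacc3 and Ccnb1 are shown because these genes are among the division genes with the lowest interaction p. Capitals mark TTTGAA, the core of the element, and CCAAT, on either strand, so TTCAAA and ATTGG are the same motifs read on the other strand. The sequences are RefSeq's, on assembly GRCr8, printed 5′ to 3′ on the gene's strand: Cep55 at chr1:245245113-245245362 on the plus strand, Tacc3 at chr14:81289699-81289948 on the minus strand and Ccnb1 at chr2:33655226-33655475 on the minus strand.
Cep55: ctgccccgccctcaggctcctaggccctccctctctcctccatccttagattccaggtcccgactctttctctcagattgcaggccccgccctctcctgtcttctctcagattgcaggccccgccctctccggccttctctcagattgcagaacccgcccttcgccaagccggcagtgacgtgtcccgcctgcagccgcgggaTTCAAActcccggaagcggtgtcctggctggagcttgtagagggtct
Tacc3: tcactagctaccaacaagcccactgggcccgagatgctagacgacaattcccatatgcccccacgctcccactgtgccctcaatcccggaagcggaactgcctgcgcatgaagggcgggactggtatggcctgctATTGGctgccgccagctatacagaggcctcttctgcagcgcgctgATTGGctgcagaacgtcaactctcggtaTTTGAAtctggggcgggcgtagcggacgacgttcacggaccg
Ccnb1: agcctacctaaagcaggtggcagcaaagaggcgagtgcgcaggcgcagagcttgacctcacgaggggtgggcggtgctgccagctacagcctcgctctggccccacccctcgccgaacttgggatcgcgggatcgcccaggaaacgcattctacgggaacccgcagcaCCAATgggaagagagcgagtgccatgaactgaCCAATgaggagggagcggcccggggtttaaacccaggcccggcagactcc
Cep55 held 1 TTTGAA, starting at -47 from the gene's start, and 0 CCAAT. Tacc3 held 1 TTTGAA, at -42, and 2 CCAAT, and Ccnb1 held 0 TTTGAA and 2 CCAAT. Of the 20 tested members of the cell cycle list, 17 had a window in the RefSeq table. TTTGAA was present in 7 of those 17 (41.2%), against 16.2% of all 33469 windows of that length. CCAAT was present in 11 of 17 (64.7%), against 34.0% of all windows, and both motifs in 6 of 17 (35.3%), against 5.87%. All windows means all of RefSeq's table and not the tested genes alone. A motif was counted at any position in the 250 bases. The 2 motifs share no overlapping letters in the sequences shown. A match describes these letters and says nothing of binding.

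Genes of antigen presentation by MHC class II formed a smaller group below 0. Of 13 tested members of the MHC class II list 10 were below 0, and 5 were below 0 at an unadjusted p below 0.05 (38.5%, against 4.08% of all genes). The list also holds the co-stimulatory genes Cd40, Cd80 and Cd86, which are not class II chains. The median interaction was -0.33. Leaving out any 1 library left 5 or 6 members at that level.

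RT1-Da (gene 294269), the rat class II alpha chain of the DR type, was at 367, 409.9, 474, 459 and 474 CPM in CLP and 302, 284, 339, 262 and 312 CPM in CLP+VNS. In Sham it was at 383, 416, 382, 399.7 and 389 CPM, and in Sham+VNS at 413, 314, 406, 451 and 494 CPM. All 5 CLP+VNS libraries were below all 5 CLP libraries and below all 5 Sham libraries, while Sham+VNS replicate 2 lay among the CLP+VNS libraries. The interaction was -0.62 ± 0.14 (95% interval -0.91 to -0.33, adjusted p = 0.501 from edgeR), and DESeq2 called it (adjusted p = 0.0369). RT1-Da did not pass in CLP minus Sham (0.15, adjusted p = 0.241) and fell in CLP+VNS minus Sham+VNS (-0.47, adjusted p = 0.00130).

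RT1-Bb, a class II beta chain, had an interaction of -0.81 ± 0.23, RT1-DMb, a chain of the peptide loading complex, had -0.64 ± 0.19, and Cd74, the invariant chain, had -0.41 ± 0.14. Ciita, the transactivator of class II genes, had -0.29 ± 0.14 with adjusted p = 0.613 from edgeR. RT1-Ba had -0.03 ± 0.34, so the estimates of the chains differed in size. The RT1 genes are near-identical in places, and the sources used here do not say how reads shared between them were divided. Mrc1 and Itgax, a scavenger receptor and an integrin of alveolar macrophages, had interactions of -0.56 ± 0.20 and -0.67 ± 0.26, and of 10 tested alveolar macrophage markers 7 were below 0 and 2 of them at an unadjusted p below 0.05 (against 4.08% of all genes). Their median was -0.35, and -0.22 without Sham replicate 5. Nckap1l, a subunit of the actin-regulating WAVE complex of blood cells, fell under stimulation after CLP and is described with the other 3 such genes below.

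Neutrophil genes rose after CLP in both arms, with lower estimates under stimulation. Without stimulation 15 of 17 tested markers rose and 1 fell, and with stimulation 12 rose and 1 fell, where 19.8% and 13.9% of all genes rose. The median effect of the operation was 2.74 without stimulation and 1.83 with it. Of the 17 interactions 15 were below 0, 3 of them at an unadjusted p below 0.05 (17.6%, against 4.08% of all genes), and the median was -0.56. These 3 were Mmp8, a granule collagenase (-1.48 ± 0.66), Fpr1, the formyl peptide receptor (-1.57 ± 0.72), and Retnlg, a resistin-like protein (-1.30 ± 0.58). Retnlg was the marker that fell after CLP, by 1.41 on the log2 scale without stimulation and by 2.72 with it, so its interaction was a larger fall and not a smaller rise.

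Mmp8 shows the spread that limits this list. It was at 38.1, 105, 83.0, 47.3 and 67.7 CPM in CLP and 30.9, 29.3, 9.66, 18.8 and 69.3 CPM in CLP+VNS, and CLP+VNS replicate 11 lay among the CLP libraries. In Sham it was at 9.94, 6.99, 23.7, 16.0 and 7.32 CPM, and in Sham+VNS at 18.3, 27.7, 7.202, 15.6 and 13.3 CPM. The number of neutrophil markers below 0 at an unadjusted p below 0.05 was 8 without CLP+VNS replicate 11 and 6 without Sham replicate 3, and it was 0 without any 1 of Sham replicates 1 and 2, CLP+VNS replicates 5 and 8, and CLP replicates 3, 4 and 6. S100a8 and S100a9, the 2 chains of calprotectin, had interactions of -0.54 ± 0.43 and -0.61 ± 0.38, and Lcn2, lipocalin 2, had 0.05 ± 1.01.

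Endothelial genes lay on the other side of 0. Of 21 tested markers 20 had an interaction above 0, and 6 were above 0 at an unadjusted p below 0.05 (28.6%, against 4.14% of all genes), with a median of 0.23. Without stimulation 10 of them fell after CLP and 4 rose, and with stimulation 6 fell and 5 rose. Of all genes 20.5% fell and 19.8% rose without stimulation, and 13.4% fell and 13.9% rose with it. The mean was lowest in CLP in 12 of the 21 (57.1%), against 30.3% of all tested genes. The exception below 0 was Nos3, the endothelial nitric oxide synthase, at -0.25 ± 0.19.

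Aplnr, the apelin receptor of veins and capillaries, was at 145, 181, 153, 192 and 201 CPM in Sham and 148, 181, 164, 188 and 144 CPM in Sham+VNS. In CLP it was at 90.2, 85.3, 80.8, 58.7 and 81.9 CPM, and in CLP+VNS at 94.8, 135, 116, 119.7 and 149 CPM. All 5 CLP libraries were below all 5 CLP+VNS libraries, and CLP+VNS replicate 11 reached the sham range. The interaction was 0.71 ± 0.18 (95% interval 0.33 to 1.09, adjusted p = 0.502 from edgeR).

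Emcn, endomucin, a sialomucin of capillary and venous endothelium, had 0.57 ± 0.21, Plvap, the diaphragm protein of fenestrae and caveolae, had 0.43 ± 0.19, and Cdh5, the VE-cadherin of endothelial junctions, had 0.29 ± 0.13. Kdr, the main VEGF receptor, was at 464 ± 56.6 CPM in Sham, 474 ± 72.4 in Sham+VNS, 196 ± 40.6 in CLP and 275 ± 51.9 in CLP+VNS (mean ± SD, n = 5), an interaction of 0.46 ± 0.21 with adjusted p = 0.591 from edgeR's fit across all genes. CLP+VNS replicate 1 was lowest in its group for Kdr at 184 CPM, where the other 4 ranged from 286 to 315 CPM. Without that library 9 endothelial markers were above 0 at an unadjusted p below 0.05. The count was 2 without Sham+VNS replicate 5 or CLP+VNS replicates 3 or 11, and 3 without Sham replicates 4 or 5, Sham+VNS replicate 4 or CLP replicate 3.

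**Figure D3:**
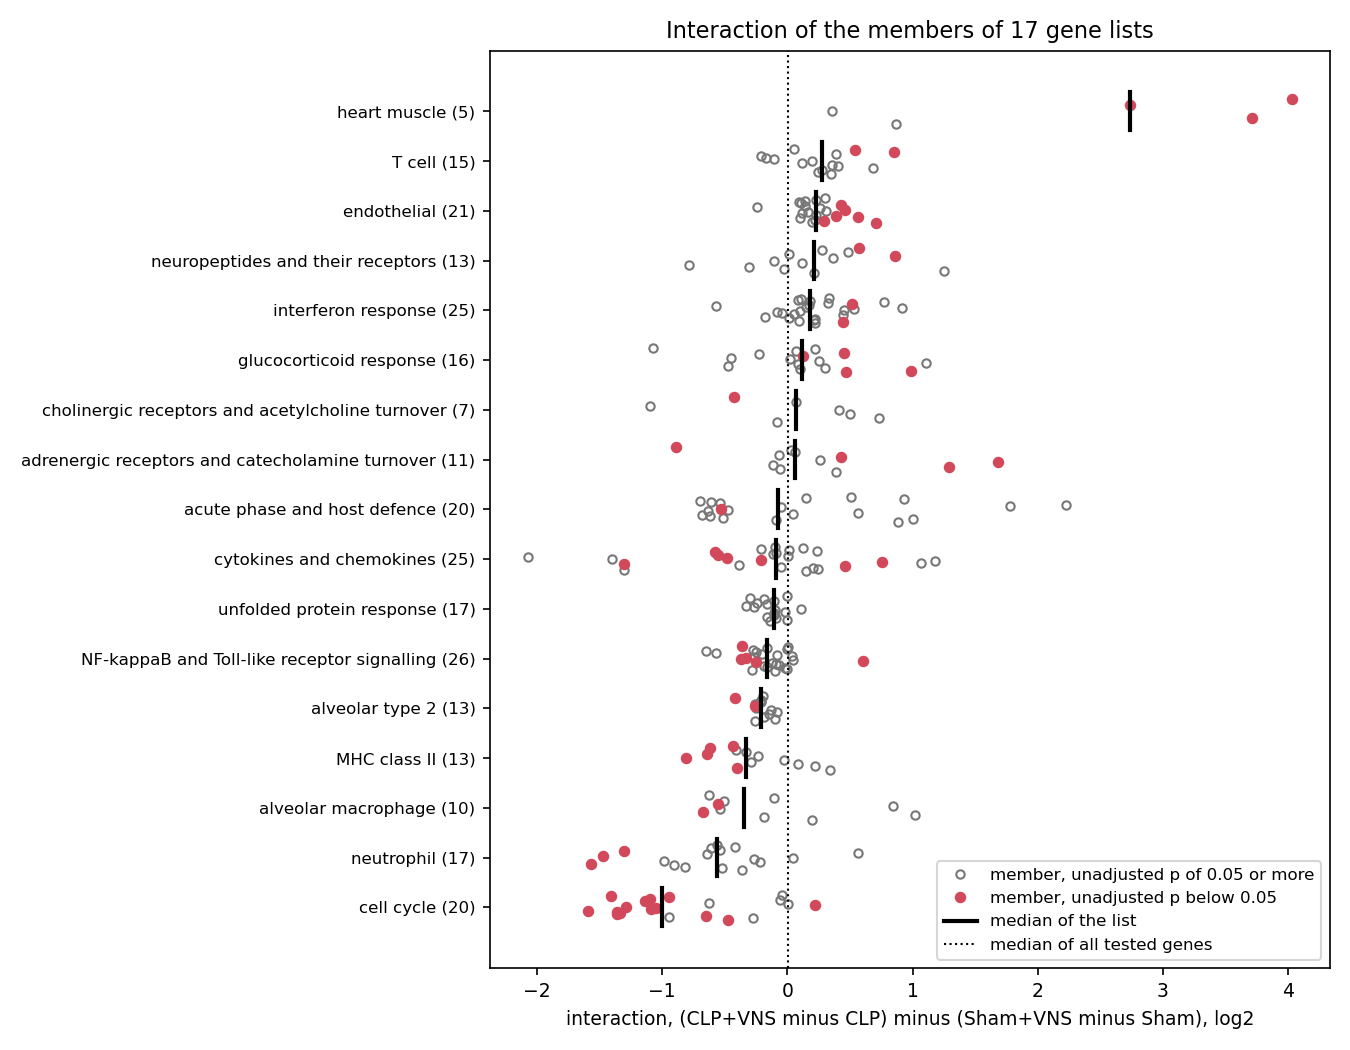
Interaction of each tested member (points, log2) of 17 of the 48 gene lists summarised, with the number of tested members after each name. Red points have an unadjusted p below 0.05, black bars are list medians and the dotted line is the median of all tested genes, 0.01. The cell cycle list has the lowest median, -0.999. The heart muscle list is at 2.74, and at 1.40 without Sham replicate 1.

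The 10 genes above 0 with the lowest p were of mixed function. Cpne7 (gene 361433), a copine that binds membranes in the presence of calcium, was at 7.33, 4.68, 14.5, 4.85 and 18.6 CPM in Sham and 4.71, 7.58, 3.57, 4.78 and 4.78 CPM in Sham+VNS. In CLP it was at 4.00, 3.88, 2.24, 2.86 and 2.28 CPM, and in CLP+VNS at 2.76, 15.1, 11.0, 9.62 and 11.6 CPM. Both Sham and CLP+VNS held libraries above 10 CPM and libraries near those of the other groups, and the CLP libraries ran from 2.24 to 4.00 CPM. The interaction was 2.69 ± 0.58 (95% interval 1.47 to 3.91, adjusted p = 0.501 from edgeR), and DESeq2 called it (adjusted p = 0.0181).

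Rgs4, which speeds the shut-off of G proteins coupled to muscarinic and adrenergic receptors, was at 8.60, 8.46, 4.64, 7.95 and 7.73 CPM in Sham and 6.04, 5.08, 5.62, 4.92 and 5.70 CPM in Sham+VNS. In CLP it was at 4.07, 3.53, 3.98, 4.83 and 3.67 CPM, and in CLP+VNS at 3.95, 6.52, 10.3, 7.12 and 6.18 CPM. Sham replicate 3 was far below its group, and CLP+VNS replicate 1 lay among the CLP libraries. The interaction was 1.21 ± 0.28 (adjusted p = 0.501 from edgeR).

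Ccl11, the eosinophil chemoattractant eotaxin, differed in another way, since nearly all of its estimate came from the sham-operated animals. Its level was 12.4, 15.5, 10.4, 14.8 and 16.1 CPM in Sham and 6.04, 5.84, 4.46, 4.42 and 5.63 CPM in Sham+VNS, and the groups did not overlap. In CLP it was 3.57, 6.57, 7.96, 2.27 and 5.07 CPM, and in CLP+VNS it was 4.25, 4.09, 4.97, 6.48 and 5.82 CPM, and these groups overlapped. The stimulated minus unstimulated difference was -1.39 after sham surgery (adjusted p = 0.176) and 0.01 after CLP (adjusted p = 0.993 from edgeR), an interaction of 1.40 ± 0.34.

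The other 7 genes above 0 had smaller estimates. Plekha6, a pleckstrin homology domain protein, had 0.77 ± 0.18, and Fam13c had 0.66 ± 0.16. Tmem250 had 0.43 ± 0.10, Gfm2, which recycles mitochondrial ribosomes, had 0.39 ± 0.09, and Sptssa, a small subunit of the enzyme that starts sphingolipid synthesis, had 0.36 ± 0.08. Eogt, which puts N-acetylglucosamine on extracellular EGF domains, had 0.35 ± 0.08, and Nelfe, a subunit of the complex that pauses RNA polymerase, had 0.32 ± 0.08. The genes below 0 not yet described were also small in size. They were Ccdc28a at -0.49 ± 0.11, the translesion DNA polymerase Polk at -0.36 ± 0.08, Adck5 at -0.38 ± 0.09, the ubiquitin ligase Rnf149 at -0.32 ± 0.07, the small GTPase Rhog at -0.28 ± 0.06 and the deubiquitinase Usp15 at -0.28 ± 0.07.

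**Figure D4:**
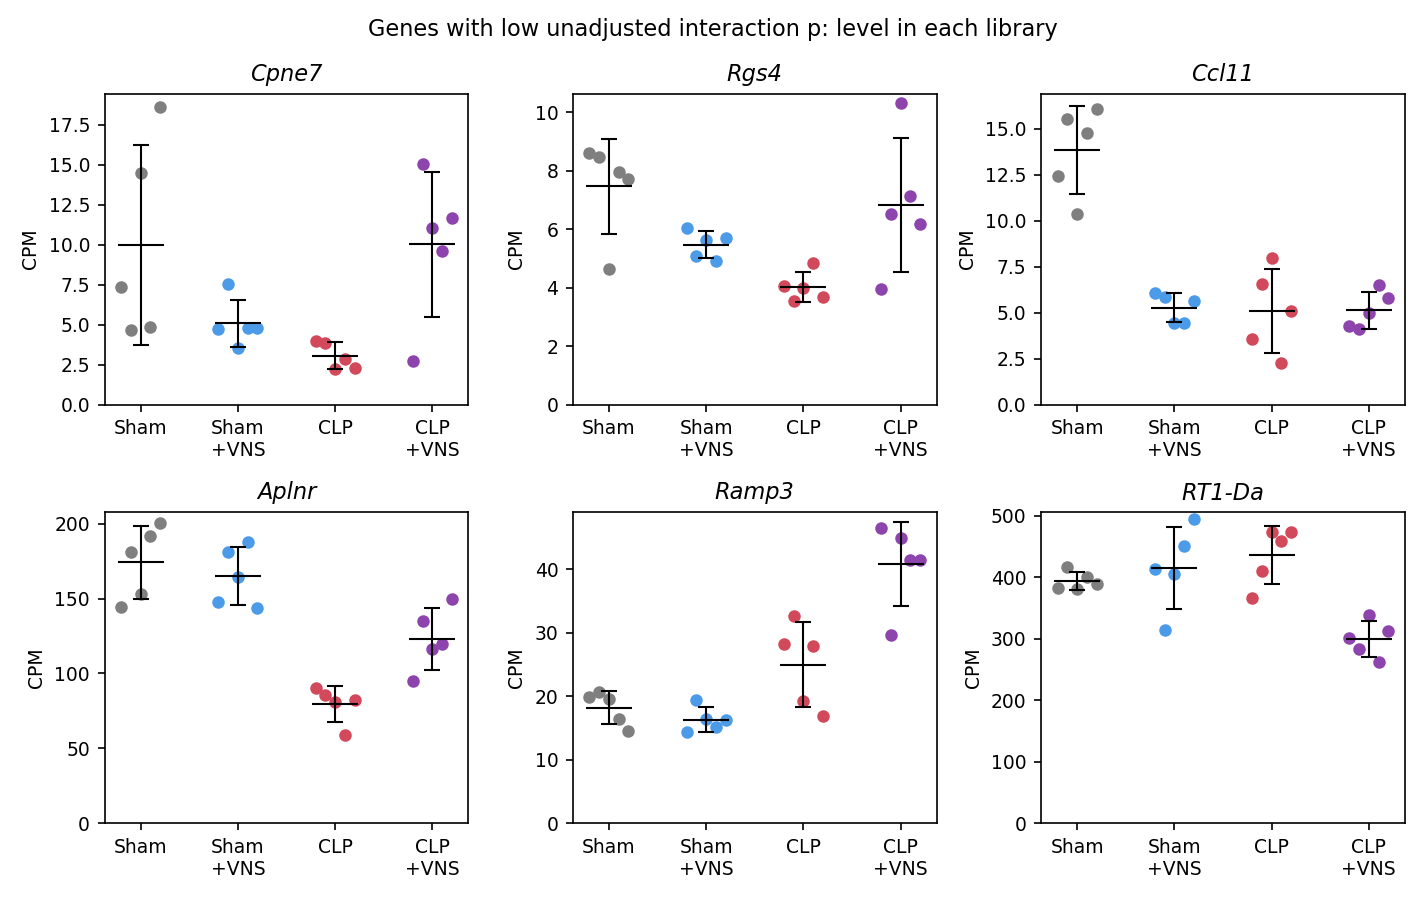
Level of 6 genes with a low unadjusted interaction p in each of the 20 libraries, in CPM on linear axes that start at 0, with group mean and 1 SD (n = 5). Stimulated CLP libraries are above the CLP libraries for Aplnr and below them for RT1-Da with no overlap. In Ccl11 the stimulated and unstimulated groups part after sham surgery and overlap after CLP.

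The 4 genes that fell under stimulation after CLP were Heatr6 (-0.55), Nckap1l (-0.50), Kmt5a, the enzyme that puts 1 methyl group on histone H4 at mitosis (-0.35), and Tacc3, each with an adjusted p of 0.0421 from edgeR. With total counts alone the adjusted p of each was 0.0536, and on log2(TPM + 1) with limma it was 0.0645 to 0.122, so all 4 calls were lost there. Of 29 alternatives the call was lost in 15 for Heatr6, 16 for Nckap1l, 17 for Kmt5a and 18 for Tacc3. After sham surgery their differences were -0.17, -0.04, -0.09 and 0.01, and 0 of the 4 passed there. The interaction, the test of whether these pairs of differences were unequal, was -0.39 ± 0.13 for Heatr6 (adjusted p = 0.512), -0.46 ± 0.12 for Nckap1l (adjusted p = 0.502) and -0.26 ± 0.08 for Kmt5a (adjusted p = 0.512 from edgeR), and none of these passed over all genes. Nckap1l was at 62.1, 73.6, 70.6, 69.6 and 73.1 CPM in CLP and 55.7, 45.4, 42.6, 49.9 and 52.8 CPM in CLP+VNS. In Sham it was at 44.2 to 54.9 CPM, and in Sham+VNS at 39.7 to 54.0 CPM, so the CLP libraries lay above all others.

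The cytokines most tied to the inflammatory reflex had estimates near 0. Tnf was at 11.9, 14.3, 11.7, 13.0 and 11.6 CPM in CLP and 11.9, 8.17, 6.56, 12.7 and 17.9 CPM in CLP+VNS, which overlapped. It was at 2.05, 2.03, 1.81, 1.62 and 1.86 CPM in Sham and 1.41, 1.32, 1.44, 1.85 and 3.17 CPM in Sham+VNS. Tnf rose after CLP without stimulation (2.73) and with it (2.63), and its interaction was -0.10 ± 0.35 with a 95% interval of -0.83 to 0.64. The sign of this estimate was not stable, since it was 0.19 without Sham+VNS replicate 5. Il1a had -0.12 ± 0.29 and Il1b had -0.09 ± 0.31, with intervals of -0.72 to 0.49 and -0.75 to 0.57.

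Chemokines that draw neutrophils were further below 0, with wide errors. Cxcl1 was at 33.1, 29.2, 37.1, 42.2 and 89.8 CPM in CLP and 26.9, 48.2, 20.2, 22.4 and 24.6 CPM in CLP+VNS, and it ranged over 2.40 to 6.77 CPM in Sham and 5.42 to 10.3 CPM in Sham+VNS. CLP replicate 6 was far above its group, and CLP+VNS replicate 3 lay above 4 of the CLP libraries. The interaction of Cxcl1 was -1.31 ± 0.47 (adjusted p = 0.516 from edgeR). Cxcl2 had -1.40 ± 0.70, made up of a difference of -0.28 after CLP and of 1.12 after sham surgery, where it was at only 0 to 0.210 CPM in Sham and 0.206 to 0.281 CPM in Sham+VNS. Neither difference passed (adjusted p = 0.712 and adjusted p = 0.675 from edgeR). Il1rn, the natural antagonist of the interleukin 1 receptor, had -0.58 ± 0.25. Cxcl12, a chemokine that holds lymphocytes and progenitors in place, had 0.76 ± 0.24, and Csf1, the macrophage growth factor, had 0.46 ± 0.16. Of 25 tested cytokines and chemokines 11 were above 0 and 14 below, with 2 and 5 at an unadjusted p below 0.05 (against 4.14% and 4.08% of all genes) and a median of -0.09.

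Il6 lay under the count filter and was compared on its own. Its counts per library were 1, 1, 3, 1 and 1 in Sham, 0, 1, 0, 0 and 1 in Sham+VNS, 7, 6, 8, 7 and 9 in CLP and 3, 2, 2, 3 and 1 in CLP+VNS. Every CLP library had more Il6 counts than every other library. At these depths 3 counts, the most that a count of 0 allows, are 0.208 to 0.219 CPM, a limit that covers counting error only. Mean Il6 was 0.0995 CPM in Sham, 0.0280 in Sham+VNS, 0.535 in CLP and 0.159 in CLP+VNS, so it was lower with stimulation after both operations. The difference of differences in mean CPM was -0.305 (exact two-sided permutation p = 0.0278, 0.0694 after adjustment over the 5 genes so tested). For these 5 genes the scale is linear CPM and not the log2 scale of the interaction. On it an equal fold change gives a larger difference where the level is higher, so -0.305 does not show unequal fold changes. With 1 library left out the adjusted permutation p ran from 0.0215, without Sham replicate 3, to 0.117. That test exchanges stimulation labels within each operation, so it tests for no effect of stimulation in either operation and not the interaction alone. Csf3, the neutrophil growth factor, had 3, 7, 14, 10 and 31 counts in CLP and 5, 4, 1, 6 and 2 in CLP+VNS. Its difference of differences was -0.672 CPM (exact permutation p = 0.0556, adjusted 0.0926). The adjusted value was 0.0397 without CLP replicate 1 and reached 0.218 when another library was left out. Cxcl11 had 0.298 CPM (exact permutation p = 0.0236, adjusted 0.0694). Its adjusted value was 0.0215 without Sham replicate 3 and 0.0285 without CLP replicate 4, and it reached 0.117 when another library was left out. Ccl4 had 0.0975 CPM, and Il10, which dampens macrophages, had 0.00710 CPM.

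NF-kappaB and Toll-like receptor genes rose after CLP in 20 of 26 cases without stimulation and in 16 of 26 with it, where 19.8% and 13.9% of all genes rose, and 0 fell in either arm. Of their interactions 21 were below 0 and 5 above, 4 and 1 at an unadjusted p below 0.05 (against 4.08% and 4.14% of all genes), and the median was -0.16. The member above 0 was Nfkbia, the inhibitor that NF-kappaB induces against itself. Its level was 107, 207, 125, 166 and 173 CPM in Sham and 119, 105, 94.99, 139 and 101 CPM in Sham+VNS. After CLP it was 344, 364, 319.7, 272 and 308 CPM without stimulation and 385, 319, 328, 319 and 412 CPM with it. Stimulated and unstimulated libraries overlapped after both operations, and the interaction was 0.61 ± 0.21 (adjusted p = 0.512 from edgeR). Nfkb2 had -0.25 ± 0.08, Zc3h12a, an RNase that cuts cytokine messages, had -0.37 ± 0.14, Nfkbiz had -0.33 ± 0.14 and Tnfaip3, the A20 ubiquitin-editing enzyme, had 0.00 ± 0.13.

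Downstream of cytokines, Stat3 had an interaction of -0.01 ± 0.09 and its feedback inhibitor Socs3 had -0.05 ± 0.26, while the kinase Jak2 had -0.32 ± 0.14. Sod2, the mitochondrial superoxide dismutase, rose after CLP without stimulation (2.44) and with it (1.99), with an interaction of -0.45 ± 0.17. Of 20 tested genes of the acute phase and of host defence, 18 rose in each arm, where 19.8% of all genes rose without stimulation and 13.9% with it. Their median interaction was -0.07, and its sign was not stable, at -0.38 without Sham replicate 1, 0.066 without CLP+VNS replicate 3 and 0.034 without CLP replicate 5. Among them Lbp, which hands endotoxin to its receptor, had -0.68 ± 0.33, Hp, haptoglobin, had -0.62 ± 0.38, and Pigr, which carries antibodies across the epithelium, had -0.53 ± 0.24.

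**Figure D5:**
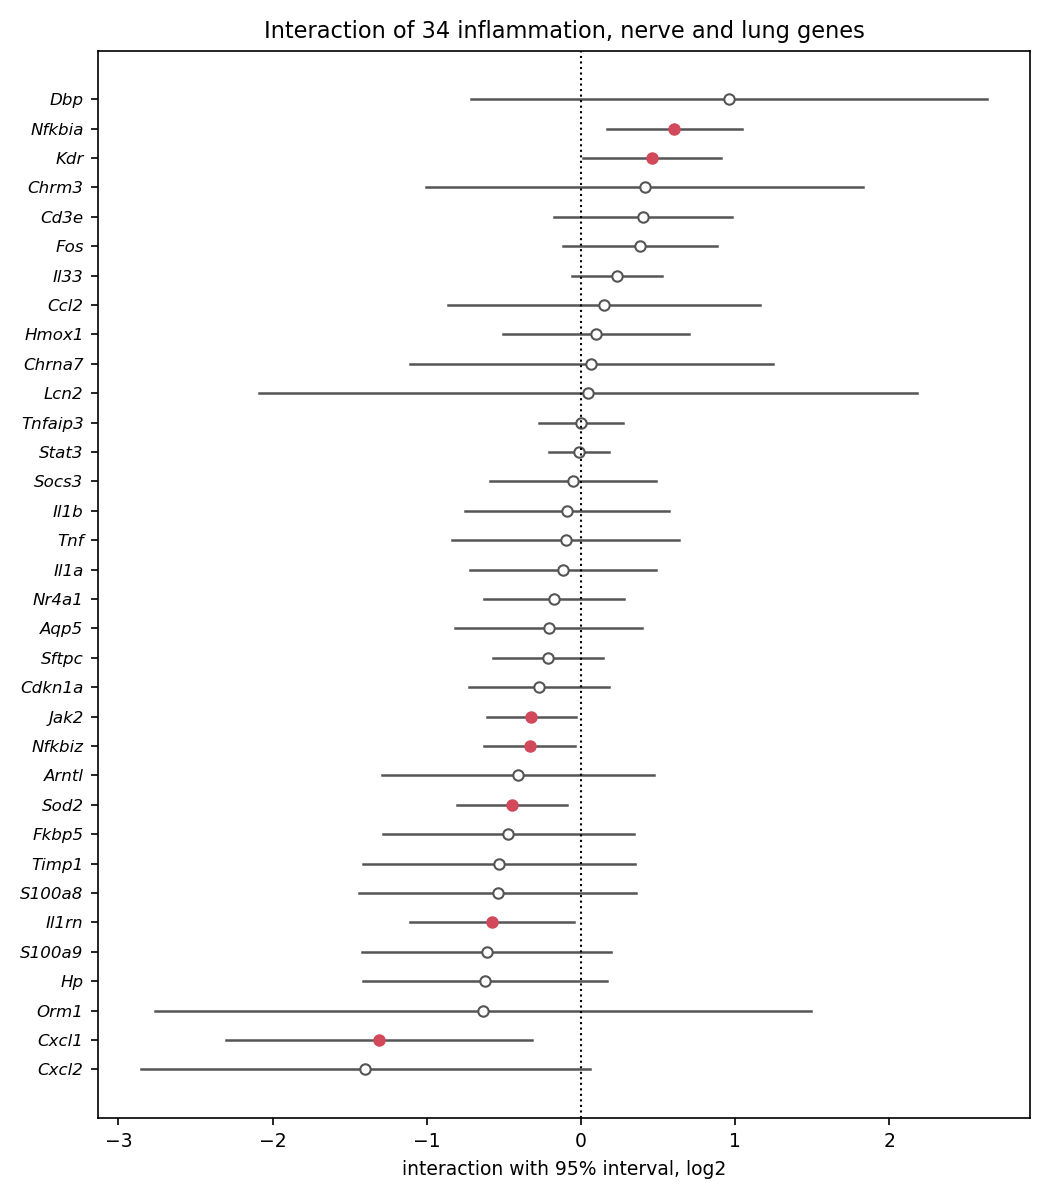
Interaction (point, log2) with its 95% interval (line) for 34 of 35 genes of a panel on inflammation, nerve signalling, stress, clock and lung cells. The other gene, Reg3g, is left out because its counts in sham-operated animals were too few for a usable interval. Filled points have an unadjusted p below 0.05, which 7 of the 35 genes had (20.0%, against 8.23% of all genes), 2 above and 5 below 0.

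Receptors for the transmitters of the vagus and its relays were mostly low. Of 7 tested cholinergic genes 1 had an unadjusted p below 0.05 (against 8.23% of all genes), Chrnb1, a nicotinic subunit, at -0.43 ± 0.19. Chrna7, the nicotinic receptor of the inflammatory reflex, had a mean of 0.521 ± 0.184 CPM in Sham, 0.643 ± 0.317 in Sham+VNS, 1.89 ± 0.820 in CLP and 2.44 ± 0.881 in CLP+VNS (mean ± SD, n = 5). Its interaction was 0.07 ± 0.56, with an interval of -1.11 to 1.25 that is wider than 2-fold on both sides. The muscarinic receptors Chrm2 and Chrm3 had 0.50 ± 0.59 and 0.41 ± 0.68.

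The adrenergic list held larger estimates in both directions. Slc6a2, the noradrenaline transporter, was at 30.1, 33.5, 31.9, 28.4 and 56.3 CPM in Sham and 105, 52.9, 64.5, 67.6 and 61.9 CPM in Sham+VNS. After CLP it was at 113, 111, 116, 73.9 and 123 CPM and with stimulation at 122, 107, 115, 88.3 and 134 CPM. Sham+VNS lay above all Sham libraries but replicate 5, CLP and CLP+VNS overlapped, and the interaction was -0.89 ± 0.28 (adjusted p = 0.512 from edgeR). Adra1d and Adra2b, both under 3 CPM on average in every group, had 1.29 ± 0.51 and 1.68 ± 0.61. Of the 11 tested genes of the list 3 were above 0 and 1 below 0 at an unadjusted p below 0.05 (against 4.14% and 4.08% of all genes).

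Ramp3, which turns the calcitonin-like receptor into an adrenomedullin receptor, led the neuropeptide list. It was at 19.9, 20.6, 19.5, 16.5 and 14.4 CPM in Sham and 14.3, 19.4, 16.5, 15.2 and 16.2 CPM in Sham+VNS. In CLP it was at 28.1, 32.7, 19.2, 27.9 and 16.8 CPM, and in CLP+VNS at 46.4, 29.7, 44.9, 41.4 and 41.5 CPM. CLP+VNS libraries were the highest of all, with CLP replicate 3 above CLP+VNS replicate 3 as the exception, and the interaction was 0.86 ± 0.23 (adjusted p = 0.502 from edgeR). Ramp3 rose after CLP without stimulation (0.46) and with it (1.32). Vipr2, a receptor for vasoactive intestinal peptide, had 0.57 ± 0.25, and Ramp2 had 0.36 ± 0.18. Of 13 tested genes 2 were above 0 at an unadjusted p below 0.05 and 0 below (against 4.14% and 4.08% of all genes), with a median of 0.21.

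Genes that respond to glucocorticoids had 4 of 16 members above 0 at an unadjusted p below 0.05 (against 4.14% of all genes) and a median of 0.11. Ddit4, an inhibitor of the growth kinase mTORC1, had 0.98 ± 0.34, Cebpd, a transcription factor of the acute phase, had 0.47 ± 0.20, Per1, a clock repressor, had 0.45 ± 0.20, and Nr3c1, the glucocorticoid receptor, had 0.13 ± 0.06. In each of these 4 the stimulated minus unstimulated difference after sham surgery was below 0, from -0.71 in Ddit4 to -0.11 in Nr3c1. After CLP it ran from -0.03 in Cebpd to 0.28 in Ddit4. Zbtb16 and Fkbp5, which glucocorticoids also raise, lay on the other side at -1.08 ± 0.53 and -0.47 ± 0.39, and 4 members in all were below 0.

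Interferon-stimulated genes had 21 of 25 interactions above 0, 2 at an unadjusted p below 0.05 (against 4.14% of all genes), with a median of 0.18. Without Sham replicate 2 that median was 0.027. In Sham replicate 2 the antiviral gene Mx2 was at 204 CPM, against 35.3 to 65.2 CPM in the other Sham libraries. The 2 genes at that level were Psmb8, an immunoproteasome subunit (0.52 ± 0.23), and Gbp5, a guanylate-binding protein (0.44 ± 0.21). Without stimulation 9 members fell after CLP and with stimulation 2 fell, where 20.5% and 13.4% of all genes fell, and 0 rose in either arm. T cell genes had 12 of 15 above 0 and a median of 0.28, and fell after CLP in 13 cases without stimulation and 11 with it, where 20.5% and 13.4% of all genes fell. Their lowest p values belonged to Tcf7 and Lef1, transcription factors of naive T cells, at 0.54 ± 0.20 and 0.85 ± 0.37.

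Alveolar type 2 genes were all slightly below 0. The 13 tested members ran from -0.41 to -0.08, 2 of them at an unadjusted p below 0.05 (against 4.08% of all genes). These 2 were Nkx2-1, the lung lineage factor (-0.25 ± 0.10), and Sftpd, surfactant protein D (-0.41 ± 0.19). Sftpc had -0.21 ± 0.17, with 1 low library in each sham-operated group. Unfolded protein response genes rose after CLP in 16 of 17 cases without stimulation and 10 with it (19.8% and 13.9% of all genes rose), 14 of their interactions were below 0, and 0 had an unadjusted p below 0.05. Hspa5, the chaperone BiP, had -0.33 ± 0.23.

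The highest list median belonged to 5 heart muscle genes, which were high in 2 Sham libraries. Of the 5 genes, 3 were above 0 at an unadjusted p below 0.05 (against 4.14% of all genes). Tnnt2, cardiac troponin T, was at 24.6, 1.05, 1.74, 1.34 and 7.32 CPM in Sham, where replicates 1 and 5 were above every library of the other groups. Its ranges were 0.513 to 1.06 CPM in CLP, 0.373 to 4.59 CPM in CLP+VNS and 0.556 to 1.27 CPM in Sham+VNS. CLP+VNS replicate 3 was the highest of its group, with Tnnt2 at 4.59, Myl4 at 2.72 and Tnni3 at 4.01 CPM. CLP+VNS and Sham enter the interaction with the same sign. The list's median interaction was 2.74 with all libraries and 1.40 without Sham replicate 1. The 6 adipocyte genes, with a median of 1.22 and 0 members at an unadjusted p below 0.05, were highest in that same library, at a summed 1993 CPM against 241 to 747 CPM in the other sham-operated libraries. Its part in other interactions is given by leaving it out: 1159 genes then had an unadjusted p below 0.05, and 13 cell cycle members were below 0 at that level.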

How the data were processed

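Lung RNA of 20 rats had been extracted with TRIzol, selected for poly(A) RNA and made into strand-specific libraries with dUTP, per the labels' protocols. The assembly was mRatBN7.2, per the submitters' processing notes, and the aligner, counting program and annotation were not given in the sources used here. The authors deposited expected counts (estimated counts, of which 91.5% are whole numbers) and TPM per gene and library. TPM entered 2 alternative fits with limma, after adding 1 or 0.1 and taking log2. A table per transcript, 40 other columns per library (FPKM and a normalized signal) and 16 columns of the authors' group averages were not used.

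Expected counts were rounded to whole numbers. Of 19060 genes, 14794 were kept by filterByExpr (minimum count 10). Libraries were scaled by TMM, and 4 group means were fitted with edgeR's quasi-likelihood model (edgeR 4.0.16, R 4.3.3, robust, 16 residual degrees of freedom), with a common BCV (biological coefficient of variation) of 0.161, and tested two-sided. The SE is the absolute estimate over the square root of F, which is rough for genes with few counts. Fits with DESeq2 1.42.0 and limma 3.58.1 were alternatives. Group labels and replicate numbers came from the sample labels.

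Named genes are, by rule, the 10 above 0 and 10 below 0 with the lowest interaction p among genes of at least 1 CPM with an established symbol, the genes called for stimulation, a panel of 36 genes (1 of which is not reported here), and per list up to 2 members with the lowest interaction p and up to 2 with the largest operation effect. Other list members were named after their values were seen. The members, panel and lists were chosen with earlier results of these data known. Intervals are 95%. Lists overlap, for example in S100a8, S100a9, Lcn2 and Mrc1. Of the identifiers, 18800 were found in RefSeq's table of assembly GRCr8.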

Additional observations from a re-analysis of the deposited data

Results flagged for a closer look

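Within groups of 5, a library was looked for whose gap to its nearest neighbour was large against the range of its group. Over 572 combinations of a named gene (or the summed cell cycle list) and a group, 60 had such a library (10.5%). For normally distributed, independent values about 1 in 20 groups would be flagged. Some of these levels rest on few counts and genes of a library vary together, so that rate does not hold here. Whether the flags exceed chance was not tested. All levels are in CPM, with the range of the other 4 libraries in parentheses, and none of these libraries was left out of the main comparison.

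Sham replicate 1 was highest for Irak3 at 24.8 (13.2 to 14.8), Tnnt2 at 24.6 (1.05 to 7.32), Myl4 at 10.9 (0.508 to 2.55), Adipoq at 285 (0 to 9.71) and Il10 at 0.705 (0 to 0.0699) and lowest for Aqp5 at 344 (402 to 421) and Sftpc at 9544 (13341 to 14406). Replicate 2 was highest for Mx2 at 204 (35.3 to 65.2) and Mx1 at 79.2 (22.1 to 28.9) and lowest for Cxcl6 at 0.140 (0.276 to 0.290). Replicate 3 was highest for Socs3 at 156 (67.6 to 81.1), Jak2 at 96.3 (72.0 to 75.6), Orm1 at 1.31 (0.0703 to 0.349), Sod2 at 134 (110.2 to 115), Mrc1 at 412 (292 to 326), Tacr1 at 3.12 (0.207 to 0.705), Gal at 3.92 (0.141 to 0.635), Cd36 at 95.8 (56.2 to 67.0) and Il6 at 0.218 (0.0690 to 0.0705) and lowest for Rgs4 at 4.64 (7.73 to 8.60) and Cxcl12 at 74.8 (132 to 141). Replicate 4 was highest for Csf3 at 0.0703 (all others at 0). Replicate 5 was highest for Slc6a2 at 56.3 (28.4 to 33.5) and lowest for Msr1 at 9.11 (29.3 to 34.7).

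Sham+VNS replicate 1 was highest for Slc6a2 at 105 (52.9 to 67.6) and Myh6 at 1.55 (0 to 0.0695). Replicate 2 was highest for Ngp at 0.626 (0.0686 to 0.0713), Mt2A at 11.3 (1.43 to 3.66) and Adipoq at 96.2 (0 to 16.2) and lowest for Sftpc at 10581 (14544 to 15846). Replicate 3 was lowest for S100a8 at 66.6 (134 to 153). Replicate 5 was highest for Tnf at 3.17 (1.32 to 1.85), Cxcl2 at 0.281 (0.206 to 0.214) and Ccl4 at 0.0704 (all others at 0).

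CLP replicate 1 was lowest for Hp at 112 (189 to 206) and RT1-DOb at 2.43 (3.95 to 4.49). Replicate 3 was highest for Il1b at 77.6 (58.1 to 62.7) and Ngp at 52.4 (4.83 to 17.1). Replicate 5 was highest for Tacr1 at 33.0 (5.29 to 8.86) and lowest for Slc6a2 at 73.9 (111 to 123) and Vipr2 at 3.00 (5.00 to 5.51). Replicate 6 was highest for Cxcl1 at 89.8 (29.2 to 42.2) and Cxcl6 at 12.3 (0.868 to 1.34).

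CLP+VNS replicate 1 was highest for Nfkbiz at 116 (83.4 to 89.5) and lowest for Depdc1b at 1.19 (1.99 to 2.15) and Kdr at 184 (286 to 315). Replicate 3 was highest for Cxcl1 at 48.2 (20.2 to 26.9), Ccnb1 at 6.31 (3.50 to 4.14), Tnnt2 at 4.59 (0.373 to 0.937), Myl4 at 2.72 (0.356 to 0.632), Tnni3 at 4.01 (0.784 to 1.51), Adipoq at 1.29 (0.0702 to 0.216), Cdk1 at 8.75 (5.06 to 5.97), Mki67 at 24.4 (17.4 to 19.2) and Myh6 at 6.45 (all others at 0). Replicate 5 was highest for Cxcl11 at 0.576 (0.0712 to 0.140). Replicate 8 was highest for Dbp at 57.4 (5.16 to 18.2). Replicate 11 was highest for Rhog at 86.9 (73.1 to 76.8), Retnlg at 3.02 (0.430 to 0.746) and Nfkb2 at 61.96 (54.3 to 56.3).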

How the results depend on the processing

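Interaction calls stayed at 0 with RLE factors, total counts alone, other filters, limma-voom and limma on TPM. DESeq2 gave 2 above 0 and 4 below: Dsg3, Cpne7, RT1-Da, Cep55, Ly6al and LOC100360117, of which Dsg3, Ly6al and LOC100360117 are at or near 0 in 1 whole group. Leaving out 1 library gave 0 to 2 calls above and 0 to 1 below, the 3 being Mtss2, Adgra2 and Col16a1 without CLP+VNS replicate 1. For stimulation after CLP, 4 calls became 144 by DESeq2, 0 with total counts alone, 0 and 0 on log2(TPM + 1) and log2(TPM + 0.1), and 0 to 277 without 1 library. After sham surgery DESeq2 gave 6 and leaving out 1 library 0 to 2. Endothelial members above 0 at an unadjusted p below 0.05 numbered 2 to 9, and neutrophil members below 0 numbered 0 to 8, without 1 library. The share of genes with an interval within 2-fold was 63.0% with no count filter.

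Same-numbered libraries of different groups deviated from their group means with correlations of -0.16 to 0.18. These values cannot tell whether equal replicate numbers pair animals, since pairing need not shift all genes together. With the number as a replicate block, interaction calls stayed at 0 and genes at an unadjusted p below 0.05 fell to 749. Calls for stimulation after CLP fell to 0, for CLP+VNS minus Sham+VNS to 2110, cell cycle members to 2 and endothelial members to 3. The numbers of CLP replicate 6 and CLP+VNS replicates 8 and 11 occur in no other group, so these libraries add nothing to the block fit. That fit cannot separate an effect of pairing from the loss of these libraries. The sign turned under the block for Ccl2 (-0.21), Chrna7 (-0.21), Lcn2 (-0.51), Hmox1 (-0.16), Dbp (-0.35) and Ngp (-0.17).

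Estimates that changed sign had an adjusted p of at least 0.381 in every setting with a test. On the linear CPM scale these were Ccl2 (-0.587), Tnfaip3 (-3.57), Lcn2 (-253), Orm1 (2.13), Fkbp5 (6.31), Cdkn1a (13.0), Arntl (0.906), Aqp5 (18.1), Ngp (-4.85), Tacr1 (-5.86) and Gal (1.48). On log2(TPM + 1) they were Ccl2 (-0.032), Stat3 (0.0090), Tacr1 (-0.51) and Gal (0.043), on log2(TPM + 0.1) Ccl2 (-0.014), Stat3 (0.0091) and Tacr1 (-0.50), with limma-voom Ccl2 (-0.035) and Tacr1 (-0.49), and for Tnfaip3 -0.00131 by DESeq2, -0.00160 with RLE factors, -0.000329 with no filter and -0.00122 with at least 1 CPM. Without 1 library the ranges that crossed 0 were Tnf -0.32 to 0.19, Il1a -0.28 to 0.013, Il1b -0.26 to 0.080, Ccl2 -0.24 to 0.43, Tnfaip3 -0.066 to 0.065, Socs3 -0.36 to 0.033, Stat3 -0.069 to 0.030, Chrna7 -0.16 to 0.40, Chrm3 -0.10 to 0.71, Chrm2 -0.12 to 0.90, Lcn2 -0.34 to 0.37, Hmox1 -0.13 to 0.27, Dbp -0.057 to 1.37, Reg3a -0.28 to 0.22, Tacr1 -1.15 to 0.85, Gal -1.82 to 0.76, Mt2A -0.79 to 0.29, Mx1 -0.010 to 0.68, Cd5 -0.046 to 0.42 and Il10 -0.127 to 0.0887 CPM. The list medians that crossed 0 without 1 library were those of acute phase genes (-0.38 to 0.066) and cholinergic genes (-0.099 to 0.30). The cause of these changes was not tested. Settings on the member lists and on genes under the count filter were chosen after seeing the data. Depth limits Il6, Csf3 and other genes of a few counts per library.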
